A study of Mus musculus with 2 samples.

Results

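The Btg and Tob antiproliferative genes Btg1, Btg2, Btg3, Tob1 and Tob2 were analysed in bone marrow (BM) LSKs of Scl/tTA-BA mice. They were taken by symbol, and all 5 were found among 34745 genes of the deposited tables. Scl/tTA-BA mice carry a transactivator driven by Scl sequences, which act in hematopoietic stem and progenitor cells, and a BCR/ABL (BA) transgene that is silent while doxycycline is in the drinking water. LSKs lack lineage markers and carry Sca1 and c-Kit on their surface. Both libraries came from double transgenic mice kept in the B6 background (C57BL/6 per the labels). The week-0 library was made from mice still on doxycycline and the week-3 library from mice 3 weeks after its withdrawal, each from LSKs of 3 mice mixed together. The ages of the mice are not given in the sources used here. With 1 library per time point there was no replicate check, so no p-value is given and every comparison is between these libraries.

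Btg and Tob proteins share an N-terminal domain that binds the Caf1 deadenylases Cnot7 and Cnot8 of the CCR4-NOT complex, which shortens the poly(A) tails of mRNAs. The Tob proteins also bind poly(A) binding proteins. Raised levels of these proteins slow the passage of cells from G1 to S phase, and Btg1 and Btg2 are known for keeping lymphocytes quiescent. Btg2 is a classical target of p53 and was also found as a phorbol ester-induced early gene.

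The promoters are shown first. The starts of Btg1, Btg2 and Tob1 hold motifs that at most 12.3% of all promoter windows hold. None of these motifs was present in every member, and their part in the lower levels was not tested. Each sequence is the 250 bases before the RefSeq start site (build GRCm38.p6), written 5′ to 3′ on the strand of the gene. Capitals mark the cAMP response element TGACGTCA or its core ACGTCA, the forkhead (FoxO) motif TGTTTAC and the TATA motif TATAAA. The windows lie at chr1:134079156-134079405 on the minus strand for Btg2, at chr10:96616751-96617000 on the plus strand for Btg1 and at chr11:94211204-94211453 on the plus strand for Tob1.
Btg2: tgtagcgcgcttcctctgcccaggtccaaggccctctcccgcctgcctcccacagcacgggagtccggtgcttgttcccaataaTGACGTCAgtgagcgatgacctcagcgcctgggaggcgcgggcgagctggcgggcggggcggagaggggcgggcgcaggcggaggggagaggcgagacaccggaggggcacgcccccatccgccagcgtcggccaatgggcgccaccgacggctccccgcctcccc
Btg1: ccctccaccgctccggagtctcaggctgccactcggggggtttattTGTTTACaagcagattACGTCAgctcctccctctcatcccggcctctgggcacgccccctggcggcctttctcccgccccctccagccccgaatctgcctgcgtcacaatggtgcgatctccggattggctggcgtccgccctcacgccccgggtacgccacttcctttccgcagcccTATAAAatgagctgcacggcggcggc
Tob1: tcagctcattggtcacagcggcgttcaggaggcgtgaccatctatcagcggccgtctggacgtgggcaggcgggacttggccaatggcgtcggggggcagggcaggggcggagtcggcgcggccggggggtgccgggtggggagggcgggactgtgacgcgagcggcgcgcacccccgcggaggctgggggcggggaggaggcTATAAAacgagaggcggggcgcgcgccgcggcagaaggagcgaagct
The Btg2 window held the whole cAMP response element from 166 to 159 bases before the start, which 1.56% of 32536 promoter windows of the same length hold on either strand. The element contains the core on both strands. The Btg1 window held the core alone, from 188 to 183 bases before the start, and 6.50% of all windows hold it. Btg1 also had the FoxO motif from 204 to 198 bases before the start, which 3.17% of windows hold. TATAAA, which 12.3% of windows hold, was found 26 bases before the start of Btg1 and 47 bases before that of Tob1. None of these 4 motifs was found in the window of Tob2 or in the windows of the 2 RefSeq starts of Btg3. CCAAT was in 5 of the 6 windows (33.8% of all windows) and the GC box GGGCGG also in 5 of 6 (32.97% of all windows). The STAT motif TTCNNNGAA (7.04% of all windows), the E-box CACGTG (6.04%) and the core of the serum response element, named only (1.48%), were in none of the 6. The GC content was 73.2% for Btg2, 65.2% for Btg1, 73.6% for Tob1 and 60.4% for Tob2, against a median of 52.4% over all windows. The windows used as background were not matched for GC content. These are matches of letters, and binding was not measured.

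**Figure D1:**
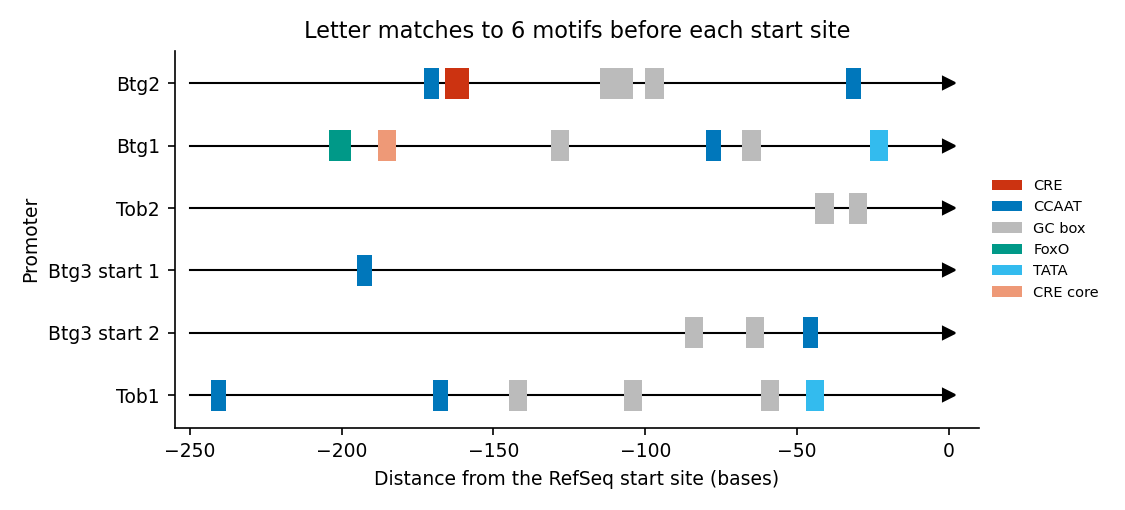
Matches to 6 motifs in the 250 bases before each RefSeq start site; the x axis is the distance from the start in bases, each line is a promoter and each coloured block a match on either strand (CRE, the cAMP response element; its core is drawn only where it stands alone). The CRE is seen at Btg2 between 166 and 159 bases before the start, whereas Tob2 has 2 GC boxes alone.

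Reads assigned to genes numbered 6356164 at week-0, against 3886695 at week-3. Levels are given as FPKM, reads scaled by exon length and by the total of the library, which allows genes of different length to be compared. Intervals at 95% were computed from the reads (exact Poisson for a level, exact Clopper-Pearson for a ratio) and hold the counting error alone. They treat reads as independent. Reads copied from 1 cDNA molecule are not, so the intervals may be too narrow even for counting error.

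All 5 genes had a lower FPKM at week-3 than at week-0. A gene was called lower when its week-3 FPKM was at most 0.5 times that at week-0, and called higher when it was at least 2 times. By this limit 4 of the 5 genes were called lower (Btg2, Btg3, Tob1 and Tob2) and Btg1 was not. The limit was passed by 16.5% of the 12731 genes tested, which are those above 0 reads in both libraries with at least 10 reads in at least 1. No member was called higher, against 11.2% of all genes tested. The median log2 ratio of the 5 genes was -1.09 and that of all genes tested was 0.05. In bulk RNA, fewer cells of an expressing type and less RNA per cell cannot be told apart.

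Btg2 (ENSMUSG00000020423, chromosome 1 of GRCm38, from 134075170 to 134079120) had the highest level of the family. It counted 3400 reads at week-0, for an FPKM of 195 (interval 189 to 202), against 1022 reads at week-3, for an FPKM of 95.9 (interval 90.1 to 102). The week-3 level was 49.2% of the week-0 level, a log2 ratio of -1.02 with an interval from -1.13 to -0.92. By FPKM it stood at rank 250 of all genes at week-0 and at rank 590 at week-3.

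Btg1, its closest relative, encodes a short protein of the same build and is a known target of FoxO factors. Btg1 (ENSMUSG00000036478, chromosome 10, from 96617001 to 96622813) counted 1955 reads at week-0, for an FPKM of 61.4, against 782 reads at week-3, for an FPKM of 40.2. Its level at week-3 was 65.4% of that at week-0 (log2 ratio -0.61, interval -0.73 to -0.49). It was the least lowered member. It passed the wider limit of 0.67 times, as did the other 4, so that all 5 were past this limit, against 25.9% of all genes tested.

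Btg3, also called ANA, binds and restrains E2f1. Btg3 (ENSMUSG00000022863, chromosome 16, from 78359860 to 78377192) counted 183 reads at week-0, for an FPKM of 18.7, against 48 reads at week-3, for an FPKM of 8.02. Its level at week-3 was 42.9% of that at week-0 (log2 ratio -1.22, interval -1.71 to -0.76), the lowest ratio of the family but also the one with the fewest reads.

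The Tob proteins are longer, and Tob1 was found through its binding to the ErbB2 receptor. Tob1 also acts as a partner of Smads in restraining T cell activation. Tob1 (ENSMUSG00000037573, chromosome 11, from 94211454 to 94215495) counted 265 reads at week-0, for an FPKM of 18.2, against 70 reads at week-3, for an FPKM of 7.87. Its level at week-3 was 43.2% of that at week-0 (log2 ratio -1.21, interval -1.61 to -0.83). Tob2 (ENSMUSG00000048546, chromosome 15, from 81848270 to 81858326) counted 687 reads at week-0, for an FPKM of 27.1, against 198 reads at week-3, for an FPKM of 12.8. Its level at week-3 was 47.1% of that at week-0 (log2 ratio -1.09, interval -1.32 to -0.86). The limit of 0.5 times lies inside the counting interval of the ratio for all 4 members called lower. For every member the interval of the level at week-3 lay below that at week-0.

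**Figure D2:**
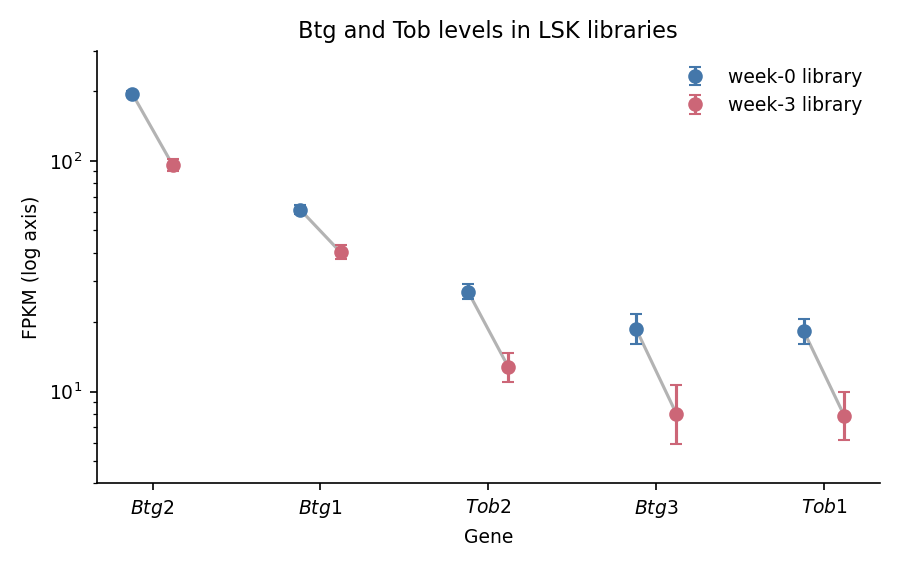
FPKM (log axis) of the 5 genes in the week-0 library (blue) and the week-3 library (red), with 1 library per time point; bars are 95% Poisson intervals from the reads and grey lines join the libraries. Btg2 is highest in both (195 and 95.9), and the intervals of the libraries do not overlap for any of the genes.

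The order of the levels was the same at both time points: Btg2, Btg1, Tob2, Btg3 and Tob1. The FPKM of Btg2 was 3.18 times that of Btg1 at week-0 (interval 3.00 to 3.36) and 2.39 times at week-3 (interval 2.17 to 2.62). Btg1 was 2.27 times Tob2 at week-0 and 3.15 times at week-3. Btg3 and Tob1, the last neighbours in the order, could not be separated by counting error, with a ratio of 1.03 at week-0 (interval 0.85 to 1.24) and 1.02 at week-3 (interval 0.71 to 1.47). The 5 genes summed to an FPKM of 320.4 at week-0 and 164.7 at week-3. Btg2 took 60.9% of this sum at week-0 and 58.2% at week-3. The share of Btg1 was 19.2% and then 24.4%.

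The ratios of Btg2, Btg3, Tob1 and Tob2 lay close together. All 6 differences in log2 ratio between these 4 genes had 95% intervals that held 0. The difference of Btg2 from Tob2 was 0.06 (interval -0.19 to 0.31), and that of Btg3 from Tob1 was -0.01 with a wide interval from -0.61 to 0.59. Btg1 stood apart from the other 4 by counting error. Its log2 ratio was higher than that of Btg2 by 0.41 (interval 0.26 to 0.57), than that of Tob2 by 0.47 (interval 0.22 to 0.73), than that of Tob1 by 0.60 (interval 0.20 to 0.997) and than that of Btg3 by 0.61 (interval 0.13 to 1.08). The spread between mice is not part of these intervals.

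**Figure D3:**
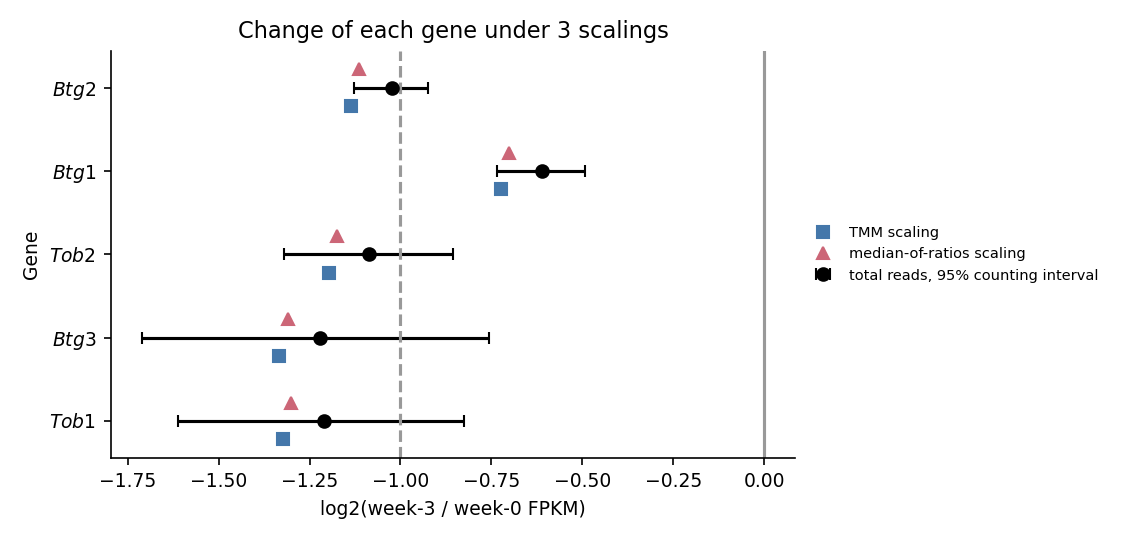
Log2 ratio of week-3 over week-0 FPKM for each gene (x axis), scaled by total reads with 95% counting intervals (black), by TMM (blue squares) and by median-of-ratios (red triangles); the dashed line marks 0.5 times. Under all 3 scalings every gene lies below 0 and Btg1 alone lies above the dashed line.

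Among all genes tested, 1653 genes (13.0%) had a ratio as low as that of Btg3 or lower. For Tob1 the number was 1673 (13.1%), for Tob2 1902 (14.9%), for Btg2 2062 (16.2%) and for Btg1 3176 (24.9%). Changes of this size were thus not rare between these libraries. With 2 libraries the profiles of single genes cannot be ranked by likeness.

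**Figure D4:**
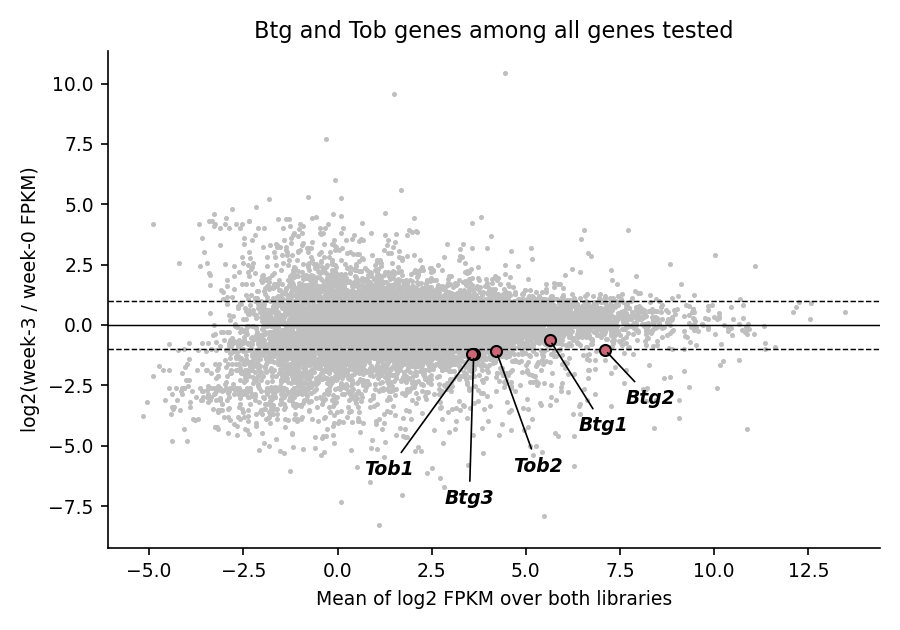
Log2 ratio of week-3 over week-0 FPKM (y axis) against the mean of the log2 FPKM in both libraries (x axis) for the 12731 genes tested (grey); the 5 genes are in red and dashed lines mark 0.5 and 2 times. The members lie at or below the lower dashed line, apart from Btg1 at -0.61.

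The study names edgeR for calling genes, and with 1 library per time point this needs an assumed variation between samples. With an assumed biological coefficient of variation of 0.1, edgeR's exact test (q under 0.05, at most 0.5 times) called the same 4 members lower, against 12.2% of all genes tested. With 0.4 it called 0 of the 5, against 0.683% of all genes. These calls compare the libraries, not the time points.

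The family has a further member, Btg4, known from oocytes, which had 0 reads in both libraries. A count of 0 allows up to 0.472 RPM (reads of a gene scaled by all reads on genes) at week-0 and 0.772 at week-3. The pseudogenes Btg1-ps1 and Btg1-ps2 were also at 0 reads. No other gene of the tables overlapped the span of any of the 5 members.

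Of the gene models, the transcripts with the longest coding sequence in GENCODE M21 had 2 exons for Btg1, Btg2, Tob1 and Tob2 and 5 exons for Btg3. The coding lengths were 474 bases for Btg2, 513 for Btg1, 756 for Btg3, 1035 for Tob2 and 1086 for Tob1. The 3′ UTR took 83.3% of the Btg1 transcript and 80.2% of that of Btg2, and 59.2% of that of Tob2. The AU-rich pentamer ATTTA was present in the 3′ UTR of every member, as it is in 63.2% of 20073 3′ UTRs. It occurred 9.11 times per kb in Btg3 and 3.91 times per kb in Tob1. The values were 2.64 in Btg1, 2.27 in Btg2 and 1.63 in Tob2, where all 3′ UTRs together had 1.94.

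Because miR-142a is the miRNA that the study follows, its seed matches in these 3′ UTRs are shown. The mature sequence is from RefSeq (GRCm38.p6, plus strand of chromosome 11 from 87756867 to 87756887), and capitals mark the seed, bases 2 to 8. In the target sites (GRCm38, GENCODE M21, 5′ to 3′ on the gene's strand) capitals mark the match ACTTTAT.
miR-142a-5p: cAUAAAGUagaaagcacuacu
Btg1 site, chr10:96618887-96618909, plus strand: aaaggatcACTTTATttgctagg
Btg3 first site, chr16:78360093-78360115, minus strand: tttgagaaACTTTATtaaagtta
Btg3 second site, chr16:78359962-78359984, minus strand: gagcatttACTTTATggagagta
Btg1 had 1 match and Btg3 had 2, in 3′ UTRs of 4166 and 439 bases, and 13.4% of all 3′ UTRs hold at least 1. Btg2, Tob1 and Tob2 had none. The match ACACTAC to the seed of miR-142a-3p, which 5.55% of 3′ UTRs hold, was in none of the 5. The miRNA itself was not analysed here. From a microarray and qRT-PCR, the study reports that each of its mature forms was lower in LSKs at week-3 than at week-0. Btg1 and Btg3, which hold matches to the miR-142a-5p seed, were lower at week-3 too (log2 ratios -0.61 and -1.22). Whether the miRNA acts on these sites was not tested.

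Subunits of the CCR4-NOT complex, through which Btg and Tob proteins act on mRNAs, stayed within the limits. None of its 10 subunits was past a limit in either direction, and their median log2 ratio was -0.03. Cnot7 and Cnot8 are the Caf1 deadenylases that the family binds. Cnot7 had an FPKM of 2.75 at week-0 and 2.80 at week-3 (log2 ratio 0.03, interval -0.27 to 0.32). Cnot8 had 33.8 and 46.6 (log2 ratio 0.47, interval 0.29 to 0.64). The Ccr4 deadenylases Cnot6 and Cnot6l had log2 ratios of -0.11 and -0.12, with intervals that held 0. Cnot8 was thus the most abundant of these deadenylases by FPKM in both libraries. By reads its lead over Cnot7 was smaller, with 604 against 250 at week-0 and 510 against 156 at week-3. FPKM depends on the exon length used, which was not checked here for these genes.

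Among 6 genes of the PAN2-PAN3 deadenylase, Parn and poly(A) binding proteins, 1 was called lower and 0 higher (median log2 ratio 0.05). The lower one was Pan2, the catalytic subunit of PAN2-PAN3, with an FPKM of 19.8 at week-0 and 7.40 at week-3 (log2 ratio -1.42, interval -1.71 to -1.14). Of 6 other binding partners, 3 were tested and none was past a limit. Prmt1, an arginine methyltransferase bound by Btg1 and Btg2, was listed with 3 reads before withdrawal (week-0) and 1 after it, too few for a comparison. Prmt1 overlaps AC155806.1, which had 0 reads in both libraries. How reads shared by overlapping genes were counted is not stated, so the level of Prmt1 cannot be judged from these reads.

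Btg2 is one of the genes first found as induced by phorbol ester. Of 8 others of that group, 6 were called lower and 0 higher, with a median log2 ratio of -2.68. Egr1, an early response transcription factor, had an FPKM of 868.8 at week-0 and 97.8 at week-3 (log2 ratio -3.15, interval -3.21 to -3.10). The log2 ratio was -3.84 for the nuclear receptor Nr4a1, -4.31 for the mRNA decay factor Zfp36l1, -4.10 for the prostaglandin synthase Ptgs2, -2.21 for Ifrd1 and -1.46 for Zfp36. Fos and Zfp36l2 were within the limits, at -0.79 and -0.58. The ratio of Btg2, -1.02, was less low than the median of this group.

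Of 10 targets of p53, the regulator of Btg2, 9 were tested. Of these, 4 were called lower and 0 higher, and their median log2 ratio was -0.55. The lower ones were the CDK inhibitor Cdkn1a (FPKM 729 at week-0 and 120 at week-3, log2 ratio -2.60), the proapoptotic gene Bbc3 (-2.95), Sesn2 (-2.06) and Phlda3 (-2.71, from 75 to 7 reads). The other 5 had values from -0.55 for Mdm2 to 0.70 for Bax, so the targets did not share 1 direction.

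At the G1 to S step that the family slows, 1 of 8 cyclins and kinases was called lower and 2 higher (median log2 ratio 0.25). Ccnd3, a D cyclin, had a log2 ratio of -1.12. It overlaps the gene Bysl, and counting by strand is not stated. The E cyclins Ccne1 and Ccne2 were at 1.57 and 1.93. Ccne2 rested on few reads (21 at week-0, 49 at week-3, interval 1.17 to 2.74). With 1 added to both FPKM, 1 gene of this list was called higher. Of 8 CDK inhibitors and pocket proteins, 2 were called lower and 0 higher, with a median of -0.33. These were Cdkn1a, given above, and Cdkn1c, which rested on few reads (log2 ratio -1.95, interval -4.35 to -0.19).

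**Figure D5:**
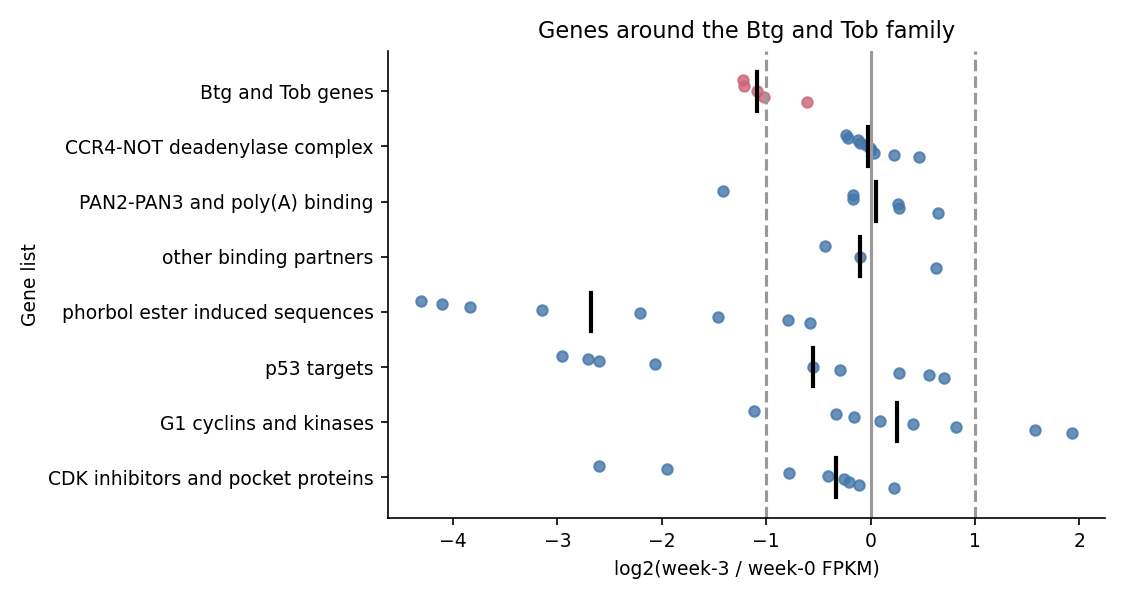
Log2 ratio of week-3 over week-0 FPKM (x axis) of each tested gene in 7 lists around the family (blue) and of the 5 members (red); thick bars are medians and dashed lines mark 0.5 and 2 times. The CCR4-NOT subunits stay between the dashed lines around a median of -0.03, whereas the phorbol ester-induced genes centre on -2.68.

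Markers of the sorted cells and of other cells also differed between the libraries. Kit, which defines the sort together with Ly6a (Sca1), had an FPKM of 16.9 at week-0 and 11.5 at week-3. For Ly6a these were 19.8 and 14.8. The 8 LSK markers summed to 304.2 and 115.3, with Flt3, Procr and Mecom among those called lower and Slamf1 called higher on few reads (10 at week-0, 15 at week-3). All 7 granulocyte markers were called higher, among them Ltf, Prtn3, Elane, Ngp, S100a8 and Mpo, and summed to 1617 at week-0 and 7998 at week-3. The 5 mast cell markers summed to 55.4 and 3000.4, where Cma1, Fcer1a, Cpa3 and Ms4a2 were called higher and Tpsb2 had 0 reads at week-0. All 5 erythroid markers, among them Klf1, Hba-a1, Hbb-bs and Epor, were called lower and summed to 554.5 and 32.3. The 5 plasma cell markers summed to 264.3 and 7.76, with Jchain, Mzb1, Sdc1 and Prdm1 called lower and Irf4 at 0 reads at week-3. The 6 B cell markers summed to 36.5 and 26.9, with Cd79a and Ebf1 (15 reads at week-0, 1 at week-3) called lower. Cd79b, the most abundant of them, was within the limits at a log2 ratio of 0.17 and made up 26.4 of the sum at week-3. The 5 T cell markers summed to 11.8 and 5.95, mostly from Lck (10.5 and 5.47), which was within the limits. Cd247 was called lower on few reads (11 at week-0, 3 at week-3), with an interval that held 0. The defining T cell marker Cd3e had 5 reads (FPKM 0.548) at week-0 and no read at week-3, too few for a comparison. These shifts lie between the same libraries as the lower levels of the Btg and Tob genes. A change in cell types and a change within cells cannot be told apart here, and the part of these shifts in the lower levels was not tested.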

How the data were processed

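RNA from sorted BM LSKs of 3 mixed mice was sequenced at each of week-0 and week-3, in 1 library each. The SMARTer kit for low input was used for cDNA, and the authors trimmed and mapped the paired-end reads to GRCm38 with TopHat2 2.0.9 (submitters' processing notes). The counting tool, annotation release, strand setting and edgeR dispersion are not given in the sources used here. The deposited counts are whole reads per gene without normalization, and the deposited FPKM were scaled by the authors by exon length and by total reads (1 FPKM stood for 1.635 times as many reads at week-0 as at week-3, which equals the ratio of the totals).

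Tables were joined by gene identifier. Log2 ratios use FPKM without a pseudocount. Depth (6356164 and 3886695 reads) sets the counting intervals, at 95%; those of differences between members use a normal approximation on the log scale. edgeR 4.0.16 and DESeq2 1.42.0 in R 4.3.3 gave TMM and median-of-ratios scaling and the exact test. That test was run on 15377 genes above 0 in both libraries, while counts of calls are given for the 12731 of them with at least 10 reads in at least 1. Procedures were tested on simulated data. Python 3.11.15, scipy 1.17.1 and matplotlib 3.10.9 were used.

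The members and lists were chosen with earlier results of these data known. Named genes are the 5 members, Cnot6, Cnot6l, Cnot7, Cnot8, Prmt1 and the list genes past 2 or 0.5 times (at most the 3 highest and 3 lowest of a list with more than 6); Kit, Ly6a, Fos, Zfp36l2, Mdm2, Bax, Tpsb2, Irf4, Cd3e, Cd79b, Lck and the genes of the closing section were added after their values were seen. A few marker genes that the rule names are counted in their lists but not reported here by name. Motifs, RefSeq promoters and miRNA, and GENCODE M21 transcripts (3′ UTRs of at least 50 bases) were also added then. RefSeq promoters were found for all 5 members. No protein sequence was used here.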

Additional observations from a re-analysis of the deposited data

How the results depend on the processing

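Each log2 ratio of the 5 members was recomputed under 4 alternatives, TMM scaling, median-of-ratios scaling, and 0.1 or 1 added to both FPKM. All 20 values were below 0, and 19 of them lay within the counting interval of the reported value. The exception was Btg2 with TMM scaling, at -1.14. TMM shifted every log2 ratio by -0.11 and median-of-ratios by -0.09. The number of members called lower was 4 with both scalings, 5 with the limits of 1.5 or 0.67, 4 with the exact test at an assumed variation of 0.1, and 0 at 0.4. The number of all genes called lower, 2101 of 12731 as reported, rose to 2342 with TMM and 2299 with median-of-ratios. It was 3294 with the limits of 1.5 or 0.67, 1548 with the exact test at 0.1 and 87 at 0.4. The number called higher, 1432 as reported, was 3040 with the limits of 1.5 or 0.67, 29 at 0.4, and 2191 without a filter on low counts, which tests more genes. Over the pathway lists, 2 genes were called higher, 6 with the limits of 1.5 or 0.67 and 1 with 1 added to both FPKM. Over the marker lists, 16 genes were called lower, and 10 with 1 added to both FPKM. No paired analysis was possible because each time point has 1 library. Depth limits Btg3 and Tob1 most, with 48 and 70 reads at week-3. Animals, sorting and library preparation cannot be told apart from time on or off doxycycline.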

Other observations

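The deposited tables place all 5 members in the KEGG class RNA degradation, under 1 shared orthology entry (protein Tob/BTG). This class was looked at after the members' values were seen. Of its 78 genes, 71 were tested, and the 66 without the members had a median log2 ratio of 0.30, where that of all genes tested was 0.05. Of these 66 genes, 1 was called lower, Pan2, and 7 (10.6%) were called higher, where 11.2% of all genes tested were. The higher ones included 3 of the 9 Exosc genes tested, which encode subunits of the complex that degrades RNA from its 3′ end: Exosc1 (log2 ratio 1.18), Exosc4 (1.09) and Exosc9 (1.29). The other 6 were within the limits. Also higher was Wdr61 (1.15), a subunit of the Ski complex that feeds the exosome. Eno1 (1.07) and Eno1b (1.01), near-identical enolase genes between which reads may be split, and Pabpc1l (1.97, from 5 to 12 reads) made up the rest. Pan2 had the lowest ratio of the 71 genes tested, followed by Btg3, Tob1, Tob2 and Btg2.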
